A study of Homo sapiens with 40 samples.

Results

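The comparison described here set 2 libraries of 786-0 cells with SETD2 knocked out, given 100 nM DAC together with 10 nM BMN and taken at day 16, against 2 libraries of the same knockout line given 100 nM DAC alone and taken at day 16. These 4 of the 40 libraries in the series were chosen by their labels for line, treatment and day, and no measured value entered the choice. 786-0 is an established line of human clear cell renal cell carcinoma. DAC is decitabine and BMN is talazoparib. All 4 libraries carry the SETD2 knockout (KO) and all 4 cultures received DAC, so the groups differ by the BMN added to DAC. Beside them stand the other groups of 2 libraries each that place the result: KO cells given the combination or DAC and taken at day 5 or day 26, cells with SETD2 intact (WT) given the combination or DAC and taken at day 16, KO cells given 10 nM BMN alone and taken at day 16, and KO control cells at day 0. The labels give neither the way the knockout was made, nor whether the KO line is 1 clone, nor whether 2 libraries of a group came from separate cultures. The p-values therefore weigh a difference against the spread between libraries of a group, which may be technical. That spread was estimated over all 40 libraries. The groups used here hold no untreated cells later than day 0.

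Decitabine is a cytidine analogue that is built into DNA, where it traps DNA methyltransferases, so that cytosine methylation is lost as cells divide. Genes silenced by promoter methylation, among them germline genes and endogenous retroviral sequences, can then be transcribed, and double-stranded RNA from them can switch on interferon genes. Talazoparib inhibits and traps PARP1 and PARP2 on DNA at sites of single-strand break repair. SETD2 is the enzyme that trimethylates lysine 36 of histone H3 on transcribed genes, a mark that links transcription with mismatch repair, homologous recombination and DNA methylation in gene bodies.

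The values are fragments per gene from total RNA. The 4 libraries held 18409308 and 17833960 fragments in genes with the combination and 18736380 and 19975194 with DAC. Levels are given as counts per 1000000 (CPM) after scaling of the libraries, which do not allow levels of different genes to be compared because gene length is not taken into account. Differences are fitted log2 ratios of combination over DAC, with their standard error, so that 1 on this scale is 2-fold, and a gene is called where the adjusted p of edgeR's quasi-likelihood test is below 0.05. Of 22527 genes tested, 3666 (16.3%) were called, of which 1707 (7.58% of genes tested) were higher and 1959 (8.70%) were lower with the combination. In each of the 3666 called genes both combination libraries lay on the same side of both DAC libraries. A low p selects for such separation, so this is no separate support for the calls. Its share over all genes tested was not counted. A difference of 2-fold or more was fitted in 244 of the higher and 451 of the lower genes. Leaving out 1 library, so that the lone library left in its group is assumed to vary like the other groups, lowered the counts. Without DAC replicate 2 the calls numbered 804 higher and 1162 lower, without combination replicate 1 they numbered 847 and 1056, without combination replicate 2 1011 and 1255, and without DAC replicate 1 1061 and 1351. Below, a call that is lost without 1 of the 4 libraries is given with the highest adjusted p that leaving out 1 library gave.

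A measured limit lies across these calls. The log2 difference moved with the GC content of the transcript, with a Spearman correlation of -0.43 across 11962 genes, which are not independent replicates. The median difference was 0.082 in the decile of genes with the lowest GC content and -0.33 in the decile with the highest. The DAC replicates also differed from each other along GC content, with a correlation of -0.49, against 0.16 for the combination replicates. An added fit with a GC offset brought the correlation of the contrast to 0.017 and called 2107 genes higher and 2084 lower. Values with this offset are given where it takes a call away or changes the larger count of a list by more than 1.5 times. The part of GC content in any single difference was not tested.

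**Figure D1:**
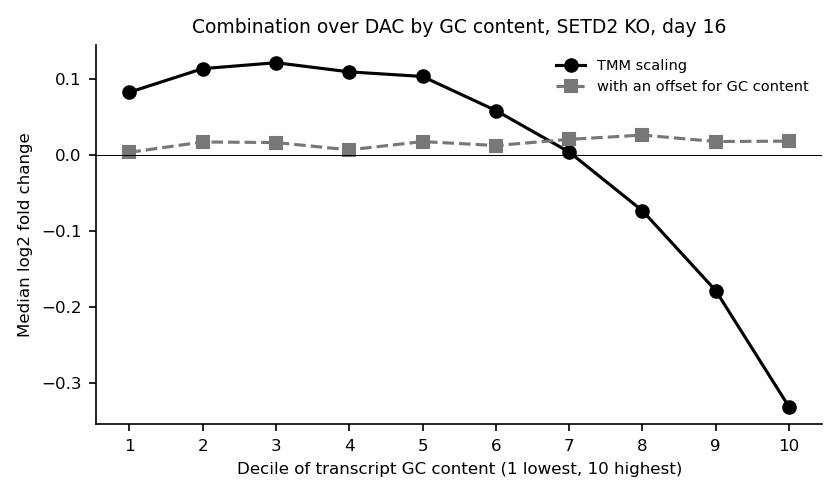
Log2 difference, combination over DAC in KO cells at day 16, by decile of GC content of the transcript (1 lowest, 10 highest), as the median over the genes of each decile, without and with the GC offset. Without the offset the medians run down to -0.33 in the highest decile, and with it the correlation over genes is 0.017.

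The line markers sat at high levels in all 4 libraries, with a summed level of 10099.9 and 10269 CPM with the combination and 9625 and 9595 CPM with DAC over 15 genes known from VHL-deficient renal carcinoma lines. The 17 leukocyte markers summed to 160.2 and 156 CPM with the combination and 179 and 173 CPM with DAC, and CD3E, MS4A1, FCGR3A, HBA1 and HBB were at 0 in all 4 libraries. The 12 endothelial and pericyte markers summed to 135 and 139.7 CPM with the combination and 249 and 258 CPM with DAC. This sum moved with the contrast, with MCAM, CSPG4 and PDGFRB called lower of 9 tested and EMCN at 0 in all 4 libraries, and its part in the fall of matrix genes was not tested. CD4 was the leukocyte marker called, of 8 tested, at 0.109 and 0.0569 CPM in the combination libraries, against 0.713 and 0.765 CPM in the DAC libraries. Its call was lost when 1 library was left out (adjusted p = 0.078 without combination replicate 2), as was that of PDGFRB (adjusted p = 0.066 without DAC replicate 2). SETD2 transcript was at 142 and 138 CPM with the combination and 131 and 126 CPM with DAC (log2 difference 0.12 ± 0.073, adjusted p = 0.28). Over all 20 KO libraries it ran between 108 and 160 CPM, and over the 8 WT libraries of days 0 and 16 between 122 and 149 CPM, so the transcript level does not check the knockout.

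The largest rise among genes with at least 5 CPM was that of MMP1, the interstitial collagenase that cuts fibrillar collagens. It stood at 29.4 and 27.5 CPM in combination-treated cells and 2.52 and 2.398 CPM in DAC-treated cells. Both combination libraries were far above both DAC libraries, an 11.5-fold difference (log2 difference 3.53 ± 0.20, adjusted p = 1.2e-14). DCN, which encodes the small matrix proteoglycan decorin, was at 5.84 and 5.29 CPM in the combination libraries, against 0.494 and 0.663 CPM in the DAC libraries (log2 difference 3.25 ± 0.44, adjusted p = 8.4e-06). FAM20C, a kinase that phosphorylates secreted proteins, was at 47.7 and 47.1 CPM with the combination and 8.503 and 9.23 CPM with DAC (log2 difference 2.42 ± 0.17, adjusted p = 2.9e-12). The remaining large rises were in PEX5L, IL1B, CSF3, DHRS3, ANGPTL4, LINC01226, POU2F2, HMGA2 and TMCC3, with log2 differences between 1.55 and 2.14. HMGA2, an architectural chromatin protein of fetal and tumour cells, was at 43.1 and 46.9 CPM in combination-treated cells and 15.8 and 13.8 CPM in DAC-treated cells (log2 difference 1.60 ± 0.14, adjusted p = 2.3e-10). DHRS3, which reduces retinal to retinol, was at 19.5 and 17.4 CPM in the combination libraries, against 5.21 and 5.102 CPM in the DAC libraries (log2 difference 1.84 ± 0.12, adjusted p = 1.2e-13).

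Among the 12 largest falls were genes of the extracellular matrix. COL3A1, the chain of type III collagen, was at 1.96 and 2.39 CPM with the combination and 15.9 and 16.7 CPM with DAC (log2 difference -2.90 ± 0.20, adjusted p = 3.1e-12). Both combination libraries lay far below both DAC libraries, 7.48-fold in the fit. VWA1, a matrix protein with a von Willebrand domain, was at 1.8005 and 3.42 CPM in combination-treated cells and 16.95 and 18.3 CPM in DAC-treated cells (log2 difference -2.76 ± 0.27, adjusted p = 4.5e-09). EDN2, the peptide endothelin 2, was at 1.47 and 2.33 CPM in the combination libraries, against 11.9 and 12.8 CPM in the DAC libraries (log2 difference -2.70 ± 0.23, adjusted p = 2.2e-10). Unlike VWA1, EDN2 was also present without DAC, at 12.6 and 10.3 CPM in KO cells given BMN and 15.003 and 17.5 CPM in KO controls at day 0. PTGIS, prostacyclin synthase, was at 5.07 and 5.12 CPM with the combination and 28.1 and 25.6 CPM with DAC (log2 difference -2.39 ± 0.16, adjusted p = 3.6e-13). SMYD1, MGAT3, MXRA8, CGB5, EMILIN1, LAMA5, CGB3 and COL8A2 completed the 12 largest falls, with differences between -2.70 and -2.04. CGB5 and CGB3 are near-identical copies of the gene for the beta chain of chorionic gonadotropin, and their separate counts are uncertain.

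**Figure D2:**
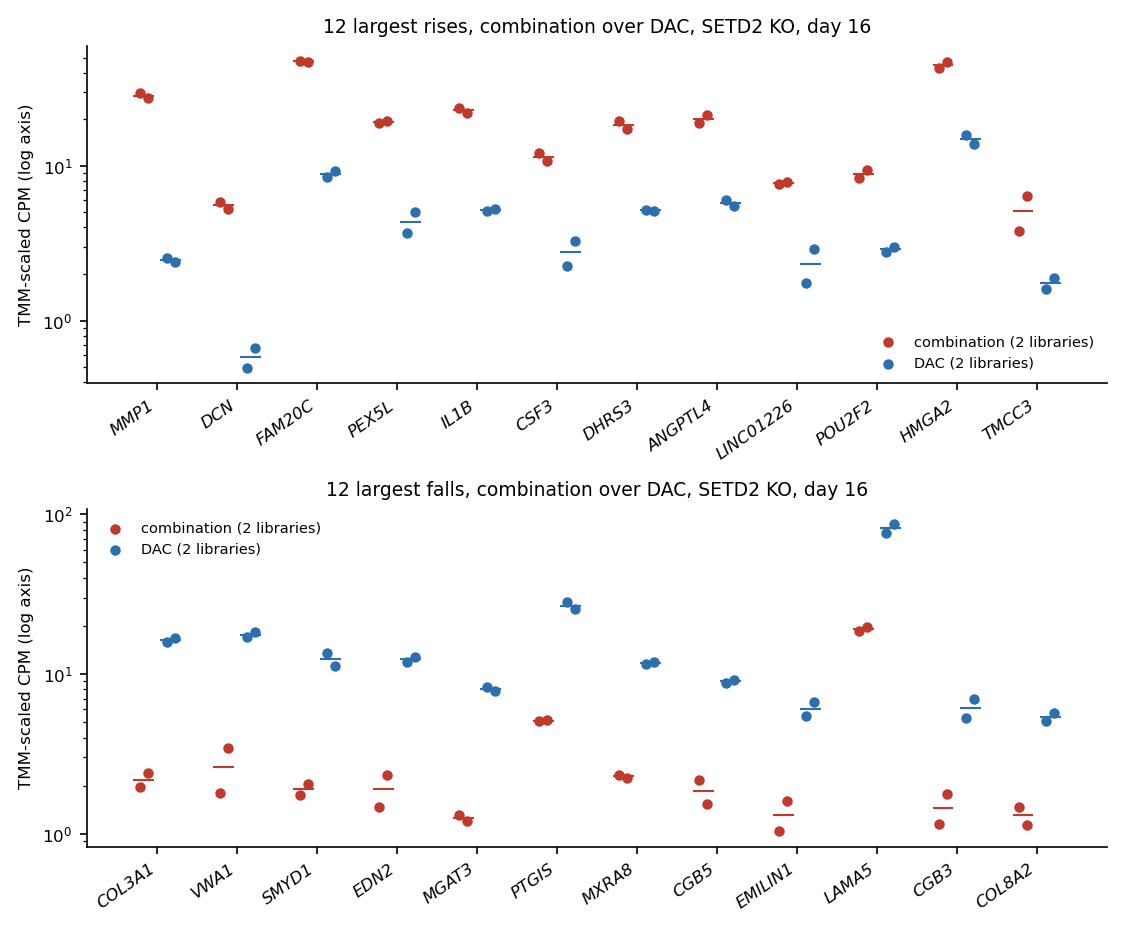
CPM of the 12 largest rises and the 12 largest falls in each library (log axis), combination against DAC in KO cells at day 16. Only genes without overlap of the combination and DAC points were picked, so their separation is set by the rule. MMP1 is the largest rise (29.4 and 27.5 CPM with the combination, 2.52 and 2.40 CPM with DAC). COL3A1 is the largest fall (1.96 and 2.39 CPM with the combination, 15.9 and 16.7 CPM with DAC).

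Most called genes of the matrix list fell. Of 38 tested genes of collagens and matrix, 3 were higher and 20 lower, with a median log2 difference of -0.37, beside 0.015 over all genes tested. COL1A1, the main chain of type I collagen, was at 477 and 471 CPM in combination-treated cells and 1521 and 1598 CPM in DAC-treated cells (log2 difference -1.72 ± 0.10, adjusted p = 5.1e-15). COL5A1, which sets the diameter of collagen fibrils, was at 379 and 388 CPM in the combination libraries, against 1348 and 1347 CPM in the DAC libraries (log2 difference -1.81 ± 0.079, adjusted p = 1.6e-17). COL6A1, of the beaded microfibrils around cells, was at 92.8 and 100.3 CPM with the combination and 345 and 371 CPM with DAC (log2 difference -1.89 ± 0.093, adjusted p = 2.9e-16). The fitted falls of these 3 genes were 3.29-fold, 3.51-fold and 3.71-fold, and the libraries of a group lay close together. Without DAC COL1A1 and COL5A1 were nearly silent. COL1A1 was at 5.03 and 5.16 CPM in KO cells given BMN and at 6.42 and 6.34 CPM in KO controls. COL5A1 stood at 0.398 and 0.397 CPM with BMN and 0.756 and 0.771 CPM in controls, so the combination left both genes far above the cells without DAC. DCN, LOX and VCAN were the 3 higher members. LOX, the enzyme that crosslinks collagen, was at 66.9 and 66.1 CPM in combination-treated cells and 48.6 and 48.3 CPM in DAC-treated cells (log2 difference 0.46 ± 0.12, adjusted p = 0.005). VCAN, the large proteoglycan versican, was at 1001 and 1045 CPM in the combination libraries, against 854 and 839.95 CPM in the DAC libraries (log2 difference 0.27 ± 0.061, adjusted p = 0.0016).

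Among matrix metalloproteinases and inhibitors, 4 of 24 tested genes were higher and 6 lower, and with 1 library left out the higher ones numbered 1 (without combination replicate 1) to 3. MMP1, MMP3 and MMP16 were among the higher ones. MMP2, a gelatinase, was at 155 and 158 CPM with the combination and 253 and 265 CPM with DAC (log2 difference -0.73 ± 0.084, adjusted p = 1e-07). MMP24, a membrane-bound protease, was at 24.1 and 24.02 CPM in combination-treated cells and 48.2 and 44.5 CPM in DAC-treated cells (log2 difference -0.94 ± 0.11, adjusted p = 8.9e-08). MMP2 thus moved opposite to MMP1. MMP9 was called lower, a call that the GC offset took away (adjusted p = 0.1). Leaving out 1 library also ended the calls of MMP9 (adjusted p = 0.23 without combination replicate 1), MMP3 (adjusted p = 0.22 without DAC replicate 1) and MMP16 (adjusted p = 0.19 without DAC replicate 2). Of 29 epithelial and mesenchymal genes 5 were higher and 13 lower, and with 1 library left out the lower ones numbered 8 (without DAC replicate 1 or combination replicate 1) to 11. CDH13, a cadherin without a cytoplasmic domain, was at 92.5 and 91.4 CPM in the combination libraries, against 57.00000000 and 51.8 CPM in the DAC libraries (log2 difference 0.76 ± 0.086, adjusted p = 7.4e-08), and SNAI2, a repressor of epithelial genes, was at 44.5 and 45.1 CPM with the combination and 34.2 and 32.9 CPM with DAC (log2 difference 0.42 ± 0.091, adjusted p = 0.0012). The epithelial adhesion gene EPCAM was at 3.98 and 3.53 CPM in combination-treated cells and 10.4 and 10.7 CPM in DAC-treated cells (log2 difference -1.49 ± 0.19, adjusted p = 7e-07), and ITGB4, the integrin chain of hemidesmosomes, was at 5.35 and 4.44 CPM in the combination libraries, against 19.1 and 19.03 CPM in the DAC libraries (log2 difference -1.96 ± 0.20, adjusted p = 1.1e-08). S100A4, a calcium-binding protein linked to cell motility, was lower as well (log2 difference -1.53 ± 0.14, adjusted p = 1.3e-09).

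Genes of lipid synthesis were lower with the combination. SREBP transcription factors switch on the genes of cholesterol and fatty acid synthesis when membrane sterol is low. Of 31 tested genes of this list none was higher and 25 were lower, with a median log2 difference of -0.73. SCD, the desaturase that makes oleate, was at 223 and 228 CPM with the combination and 923 and 909.997 CPM with DAC (log2 difference -2.02 ± 0.047, adjusted p = 1.1e-25). The fall of SCD was 4.06-fold, and KO cells given BMN alone held 1680.3 and 1694 CPM and KO controls 1912 and 1795 CPM. LSS, which closes the sterol ring, was at 51.4 and 52.6 CPM in combination-treated cells and 143 and 147 CPM in DAC-treated cells (log2 difference -1.48 ± 0.10, adjusted p = 1.7e-12). FASN, fatty acid synthase, was at 229 and 252 CPM in the combination libraries, against 603 and 669 CPM in the DAC libraries (log2 difference -1.40 ± 0.13, adjusted p = 5.9e-10). FADS2, a desaturase of polyunsaturated fatty acids, was at 237 and 239 CPM with the combination and 549.9 and 553 CPM with DAC (log2 difference -1.21 ± 0.077, adjusted p = 1.7e-13).

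Regulators of the pathway were lower too. SREBF1, which drives the fatty acid branch, was at 49.9 and 54.2 CPM in combination-treated cells and 145 and 146 CPM in DAC-treated cells (log2 difference -1.48 ± 0.14, adjusted p = 1.6e-09). SREBF2, which drives the sterol branch, was at 151 and 157 CPM in the combination libraries, against 275 and 282 CPM in the DAC libraries (log2 difference -0.86 ± 0.083, adjusted p = 2.8e-09). INSIG1, which holds SREBP in the endoplasmic reticulum, was at 172 and 174 CPM with the combination and 408 and 385 CPM with DAC (log2 difference -1.20 ± 0.061, adjusted p = 6.2e-16). The letters TCACNCCAC, a form of the sterol response element, were searched on both strands in the 250 bases before the start of each gene in the RefSeq promoters (GRCh38.p14). They were found in 1 of the 24 list genes with a promoter there, or 4.17%, and in 297 of 27305 genes of the table, or 1.09%. That gene is SREBF2, and its promoter is shown because it is the match among the called genes, in capitals and beginning 133 bases before the start.
SREBF2, chr22:41832855-41833104, plus strand: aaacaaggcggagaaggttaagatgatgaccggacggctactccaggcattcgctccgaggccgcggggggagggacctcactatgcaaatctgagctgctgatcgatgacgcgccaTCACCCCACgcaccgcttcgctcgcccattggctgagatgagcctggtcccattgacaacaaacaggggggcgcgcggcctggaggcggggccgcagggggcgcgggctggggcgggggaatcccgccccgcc

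Most of the interferon-stimulated genes tested were lower with the combination. Of 64 tested genes none was higher and 40 were lower, with a median log2 difference of -0.38, and with the GC offset 48 were lower and none was higher. These genes encode antiviral effectors, and many carry in their promoter an interferon-stimulated response element, to which interferon-activated factors bind. The letters GAAA, any 2 bases and GAAA again, the core of this element, were searched on both strands in the same 250-base windows. They were in 30 of the 48 list genes with a promoter in the table, or 62.5%, against 1014 of 27305 genes, or 3.71%. Among the genes that fell, 22 of 30 held a match, and among the others, 8 of 18. In the list of MHC class I genes 8 of 16, or 50%, held one. A match is a description of letters and not of binding. The promoters of 3 called interferon genes and of HLA-F follow, picked by size of fall among called genes whose promoter held a match. The promoters shown therefore do not tell how often the genes with the largest falls carry these letters. LGALS9, IRF7 and MX1 fell more than IFI6, and their promoters are not shown, which does not mean that they lack a match. The matching letters are in capitals, on either strand, and ISG15 holds 2 matches that overlap.
IFITM1, chr11:313790-314039, plus strand: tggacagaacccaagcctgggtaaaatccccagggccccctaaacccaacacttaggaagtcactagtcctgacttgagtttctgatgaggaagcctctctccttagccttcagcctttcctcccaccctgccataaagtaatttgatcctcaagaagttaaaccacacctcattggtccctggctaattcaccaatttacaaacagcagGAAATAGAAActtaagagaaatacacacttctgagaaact
ISG15, chr1:1013247-1013496, plus strand: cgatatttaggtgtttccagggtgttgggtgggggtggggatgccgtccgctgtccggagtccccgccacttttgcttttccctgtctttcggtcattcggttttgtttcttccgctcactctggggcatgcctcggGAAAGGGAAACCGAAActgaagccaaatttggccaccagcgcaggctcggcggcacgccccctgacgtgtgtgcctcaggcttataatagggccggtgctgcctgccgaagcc
IFI6, chr1:27672193-27672442, minus strand: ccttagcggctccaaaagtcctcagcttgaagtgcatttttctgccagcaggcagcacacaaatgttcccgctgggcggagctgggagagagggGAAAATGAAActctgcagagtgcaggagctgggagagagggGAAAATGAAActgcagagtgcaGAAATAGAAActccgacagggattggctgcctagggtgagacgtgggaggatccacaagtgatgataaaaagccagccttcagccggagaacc
HLA-F, chr6:29723184-29723433, plus strand: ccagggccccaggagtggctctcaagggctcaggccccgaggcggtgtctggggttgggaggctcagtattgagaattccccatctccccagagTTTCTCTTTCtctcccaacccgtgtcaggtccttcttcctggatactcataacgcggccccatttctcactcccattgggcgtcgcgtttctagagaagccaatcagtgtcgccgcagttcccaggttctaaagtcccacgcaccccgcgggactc

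IFITM1, a membrane protein that blocks virus entry, was at 30.8 and 31.6 CPM in combination-treated cells and 77.9 and 81.3 CPM in DAC-treated cells (log2 difference -1.35 ± 0.11, adjusted p = 1.4e-10). ISG15, a ubiquitin-like modifier, was at 170.01 and 171 CPM in the combination libraries, against 332 and 346 CPM in the DAC libraries (log2 difference -0.99 ± 0.12, adjusted p = 4.8e-07). MX1, a GTPase that traps viral capsids, was at 179 and 174 CPM with the combination and 341 and 349.6 CPM with DAC (log2 difference -0.97 ± 0.083, adjusted p = 2.1e-10). IFI6, an inhibitor of flavivirus replication, was at 457 and 448 CPM in combination-treated cells and 845 and 878 CPM in DAC-treated cells (log2 difference -0.93 ± 0.093, adjusted p = 5.1e-09). These are falls of 2.55-fold for IFITM1, 1.99-fold for ISG15, 1.96-fold for MX1 and 1.91-fold for IFI6. The combination libraries still stood far above cells without DAC, where MX1 was at 2.04 and 2.09 CPM with BMN and at 2.64 and 1.71 CPM in controls. IRF7, the factor that amplifies the interferon response, was lower (log2 difference -1.08 ± 0.15, adjusted p = 3.8e-06), as was LGALS9, which encodes galectin 9 (log2 difference -1.16 ± 0.20, adjusted p = 9.7e-05). IFITM1 has close relatives in the genome, with which its fragments may be shared.

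Sensors of nucleic acids fell in part. Of 18 tested genes none was higher and 9 were lower, with a median of -0.29. DHX58, a regulator of the RNA helicase sensors, was at 29.1 and 28.8 CPM in the combination libraries, against 47.9 and 45.5 CPM in the DAC libraries (log2 difference -0.69 ± 0.11, adjusted p = 3.4e-05). STING1, the adaptor of cytosolic DNA sensing, was at 32.7 and 36.2 CPM with the combination and 53.2 and 53.9 CPM with DAC (log2 difference -0.64 ± 0.10, adjusted p = 1.8e-05). TLR3, the endosomal receptor of double-stranded RNA, was at 3.11 and 4.44 CPM in combination-treated cells and 5.92 and 6.38 CPM in DAC-treated cells (log2 difference -0.71 ± 0.19, adjusted p = 0.0097). AIM2, an inflammasome sensor of DNA, was also lower at a low level (log2 difference -0.78 ± 0.23, adjusted p = 0.016). Neither TLR3 (adjusted p = 0.22 without combination replicate 1) nor AIM2 (adjusted p = 0.13 without combination replicate 2) kept its call in every fit that left out 1 library.

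MHC class I genes present peptides of the cell to T cells. Of 20 tested genes none was higher and 12 were lower, with a median of -0.36. TAP1, which pumps peptides into the endoplasmic reticulum, was at 154 and 156 CPM in the combination libraries, against 278 and 284 CPM in the DAC libraries (log2 difference -0.86 ± 0.088, adjusted p = 7.6e-09). PSMB9, a subunit of the immunoproteasome, was at 25.6 and 26.4 CPM with the combination and 44.5 and 48.01 CPM with DAC (log2 difference -0.83 ± 0.12, adjusted p = 4.1e-06). NLRC5, the transactivator of this gene set, was at 73.5 and 75.2 CPM in combination-treated cells and 116 and 119 CPM in DAC-treated cells (log2 difference -0.66 ± 0.10, adjusted p = 5.7e-06). These 3 genes were lower in both combination libraries than in both DAC libraries. HLA-F was at 44.03 and 42.97 CPM in the combination libraries, against 83.5 and 94.1 CPM in the DAC libraries (log2 difference -1.03 ± 0.10, adjusted p = 6e-09). The classical chains HLA-B (log2 difference -0.49 ± 0.088, adjusted p = 0.00014) and HLA-C (log2 difference -0.69 ± 0.11, adjusted p = 2.2e-05) fell less than HLA-F, and fragments of these similar genes may be shared among them. B2M, the light chain of all class I molecules, was at 1180.3 and 1180.05 CPM with the combination and 1549.6 and 1453 CPM with DAC (log2 difference -0.35 ± 0.057, adjusted p = 3.3e-05).

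Germline genes, which DNA methylation silences in most tissues, had lower calls and no higher ones. Of 40 tested genes none was higher and 18 were lower, with a median of -0.70. MAEL, a guard against transposons in germ cells, was at 3.49 and 3.6996 CPM in combination-treated cells and 12.4 and 11.02 CPM in DAC-treated cells (log2 difference -1.70 ± 0.18, adjusted p = 9e-09). TDRD1, a scaffold of the piRNA pathway, was at 3.601 and 3.301 CPM in the combination libraries, against 7.57 and 6.28 CPM in the DAC libraries (log2 difference -1.001 ± 0.21, adjusted p = 0.0013), and TDRD12 of the same pathway was at 1.64 and 1.54 CPM with the combination and 4.11 and 3.62 CPM with DAC (log2 difference -1.28 ± 0.25, adjusted p = 0.00049). In KO controls at day 0 MAEL was at 0.324 and 0.276 CPM and TDRD1 was at 0 in both libraries. The cancer-testis antigen gene CTAG2, which has near-identical copies, was at 1.69 and 1.08 CPM in combination-treated cells and 4.005 and 3.21 CPM in DAC-treated cells (log2 difference -1.37 ± 0.30, adjusted p = 0.0022). The germline genes named here stayed above their control level in both combination libraries. Of 26 tested genes described as promoter-methylated in tumours, 4 were higher and 8 lower, and with 1 library left out 1 (without DAC replicate 1 or DAC replicate 2 or combination replicate 2) to 3 were higher and 5 (without combination replicate 2) to 8 lower. DAPK1, a kinase that promotes cell death, was at 111 and 117 CPM in the combination libraries, against 239 and 247 CPM in the DAC libraries (log2 difference -1.09 ± 0.059, adjusted p = 2.8e-15), but this gene was not silent in KO controls, at 374 and 351 CPM. GREM1, a secreted BMP antagonist, was at 0.928 and 0.7399 CPM with the combination and 3.29 and 3.01 CPM with DAC (log2 difference -1.91 ± 0.35, adjusted p = 0.00026). Of 17 genes derived from retrotransposons or retroviruses 1 was higher and 4 were lower, with the GC offset 3 were higher and 2 lower, and their median was 0.18, opposite in sign to the count. ERVH48-1, a retroviral envelope gene, was at 2.24 and 1.82 CPM in combination-treated cells and 3.73 and 5.102 CPM in DAC-treated cells (log2 difference -1.12 ± 0.29, adjusted p = 0.0075). RTL3, a gene domesticated from a retrotransposon, was the higher one, at 6.49 and 5.12 CPM in the combination libraries, against 3.24 and 3.11 CPM in the DAC libraries (log2 difference 0.87 ± 0.20, adjusted p = 0.0021). With 1 library left out the lower germline genes numbered 9 (without combination replicate 1) to 13, none was higher, the lower retroviral genes numbered 1 (without DAC replicate 1 or DAC replicate 2 or combination replicate 2) to 2, and the calls of CTAG2 (adjusted p = 0.058 without combination replicate 2), ERVH48-1 (adjusted p = 0.14 without DAC replicate 2) and RTL3 (adjusted p = 0.075 without combination replicate 1) were lost.

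Inflammatory cytokines had calls in both directions. Of 37 tested cytokines and NF-kB targets 16 were higher and 9 lower, and with the GC offset 19 were higher and 5 lower. IL1B, which encodes interleukin 1 beta, was at 23.7 and 21.9 CPM with the combination and 5.102 and 5.25 CPM with DAC (log2 difference 2.14 ± 0.25, adjusted p = 3.1e-07). CSF3, the growth factor of neutrophils, was at 12.1 and 10.7 CPM in combination-treated cells and 2.25 and 3.27 CPM in DAC-treated cells (log2 difference 2.04 ± 0.26, adjusted p = 6.6e-06). CXCL1, a chemokine that attracts neutrophils, was at 195 and 187 CPM in the combination libraries, against 80.1 and 86.8 CPM in the DAC libraries (log2 difference 1.19 ± 0.10, adjusted p = 7.9e-11). IL1B and CSF3 were at 0 in all 4 libraries of KO cells given BMN alone or left as controls. IL6 was at 257 and 252 CPM with the combination and 128 and 128 CPM with DAC (log2 difference 0.99 ± 0.094, adjusted p = 1.6e-09), and CXCL8, which encodes interleukin 8, was at 812 and 836 CPM in combination-treated cells and 479 and 425 CPM in DAC-treated cells (log2 difference 0.87 ± 0.092, adjusted p = 1.8e-08). Both were present at lower levels without DAC, where IL6 was at 14.4 and 14.1 CPM with BMN and 13.8 and 13.4 CPM in controls. CSF2, the growth factor of granulocytes and macrophages, was higher (log2 difference 1.23 ± 0.16, adjusted p = 1.2e-06), as was LCN2, the iron-scavenging lipocalin 2 (log2 difference 1.51 ± 0.15, adjusted p = 7.3e-09). CCL2, which attracts monocytes, went the other way, at 15.6 and 14.7 CPM in the combination libraries, against 29.3 and 29.1 CPM in the DAC libraries (log2 difference -0.95 ± 0.11, adjusted p = 1.5e-07). BCL3, a nuclear partner of NF-kB, was lower (log2 difference -0.89 ± 0.16, adjusted p = 0.0001), and so was TNFAIP2 (log2 difference -0.52 ± 0.10, adjusted p = 0.00017).

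Among ligands of the EGF receptor and feedback genes of ERK signalling, 11 of 29 tested genes were higher, 1 was lower and 17 were not called, with a median of 0.30. TGFA, a ligand of the EGF receptor, was at 852 and 832 CPM with the combination and 475 and 465 CPM with DAC (log2 difference 0.84 ± 0.052, adjusted p = 7.8e-14). EREG, the ligand epiregulin, was at 118 and 128 CPM in combination-treated cells and 69.9 and 61.9 CPM in DAC-treated cells (log2 difference 0.90 ± 0.087, adjusted p = 2.7e-09). Both ligands were higher in both combination libraries. The feedback inhibitor SPRY4 was at 14.1 and 14.4 CPM in the combination libraries, against 6.58 and 5.76 CPM in the DAC libraries (log2 difference 1.21 ± 0.18, adjusted p = 1.2e-05), and the ERK phosphatase DUSP6 was at 7.37 and 5.86 CPM with the combination and 3.79 and 2.96 CPM with DAC (log2 difference 0.97 ± 0.22, adjusted p = 0.0019). The DUSP6 call was lost in 2 of the 4 fits without 1 library (adjusted p = 0.064 without DAC replicate 2). DUSP5 (log2 difference 0.95 ± 0.13, adjusted p = 1.5e-06) and the ERK-driven factors ETV5 (log2 difference 0.83 ± 0.10, adjusted p = 3.8e-07) and FOSL1 (log2 difference 0.67 ± 0.10, adjusted p = 5.6e-06) were higher too. JUNB, an AP-1 partner, was the lower member, at 95.7 and 91.2 CPM in combination-treated cells and 135 and 141 CPM in DAC-treated cells (log2 difference -0.56 ± 0.12, adjusted p = 0.0015). Of 31 TGF-beta and YAP targets 4 were higher and 6 lower, and with the GC offset 11 were higher and 8 lower. The lower ones numbered 2 (without DAC replicate 2) to 6 with 1 library left out. ANKRD1, a YAP target, was at 62.9 and 60.7 CPM in the combination libraries, against 32.6 and 31.7 CPM in the DAC libraries (log2 difference 0.94 ± 0.09, adjusted p = 2e-09), and NT5E, the ectoenzyme CD73, was at 355 and 371 CPM with the combination and 251 and 244 CPM with DAC (log2 difference 0.55 ± 0.069, adjusted p = 4.7e-07). ENG, the TGF-beta coreceptor endoglin, was at 76.6 and 86.8 CPM in combination-treated cells and 137 and 150.2 CPM in DAC-treated cells (log2 difference -0.81 ± 0.11, adjusted p = 2.9e-06).

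**Figure D3:**
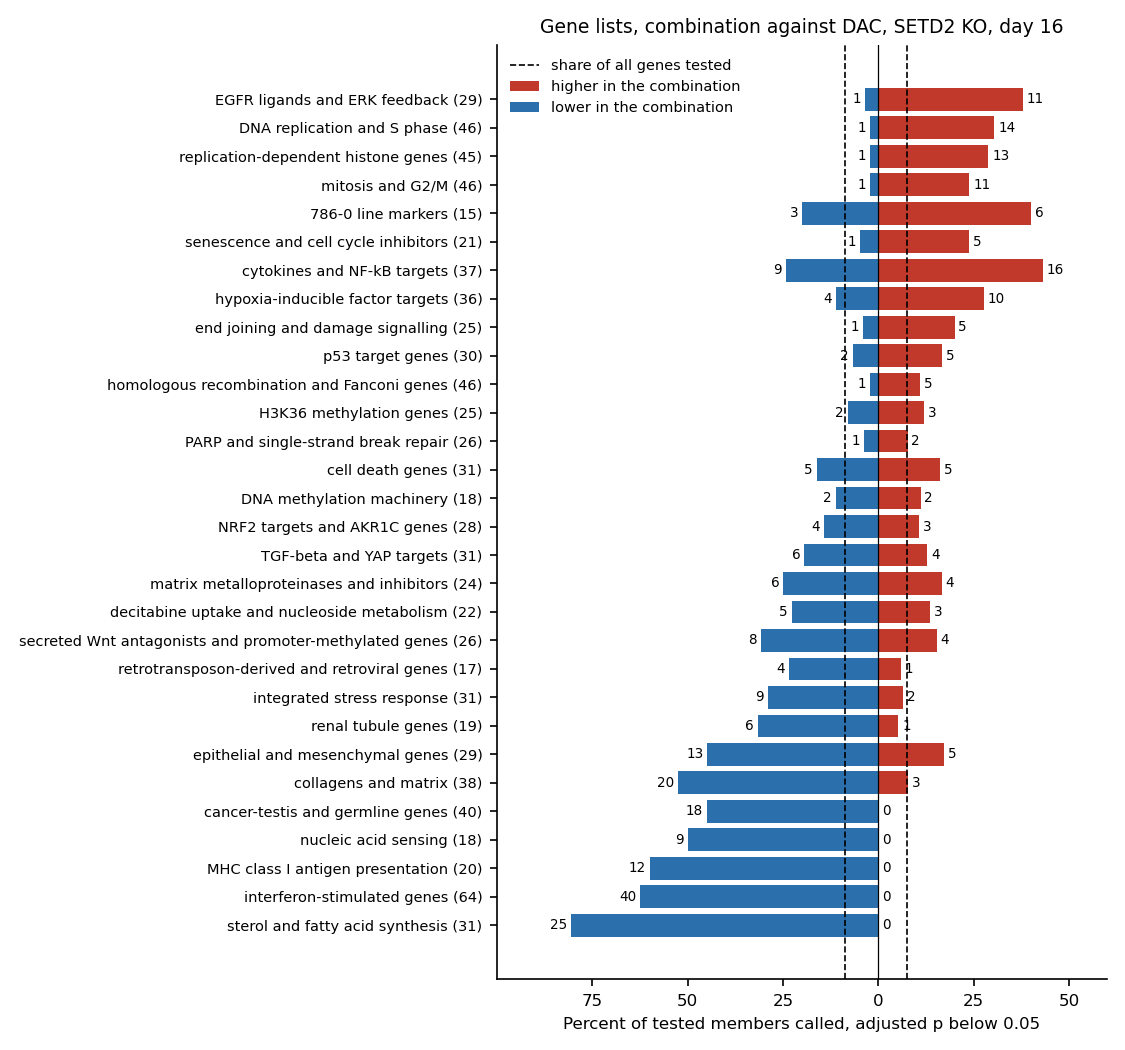
Percent of tested members of each gene list called lower (bars to the left) and higher (bars to the right), combination over DAC in KO cells at day 16. The number beside a bar counts the members called, the number in parentheses those tested, and dashed lines mark the share over all genes tested (8.70% lower, 7.58% higher). No member of the sterol, interferon, sensing, MHC class I or germline lists was called higher, while 11 of 29 ERK genes were.

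Among genes of DNA replication, 14 of 46 tested were higher, 1 was lower and 31 were not called, with a median of 0.12. RRM2, the regulatory subunit of ribonucleotide reductase, was at 628 and 629.95 CPM in the combination libraries, against 494 and 473 CPM in the DAC libraries (log2 difference 0.38 ± 0.052, adjusted p = 2.6e-06). POLA1, the catalytic subunit of the polymerase that starts each strand, was at 78.2 and 79.9 CPM with the combination and 60.6 and 58.3 CPM with DAC (log2 difference 0.41 ± 0.081, adjusted p = 0.00045). POLD1 was the lower member, a call that the GC offset took away (adjusted p = 0.14). Of 46 genes of mitosis 11 were higher and 1 was lower, and with the GC offset 18 were higher and 2 lower. KIF18A, a kinesin that aligns chromosomes (log2 difference 0.47 ± 0.14, adjusted p = 0.016), and TPX2, a spindle assembly factor (log2 difference 0.31 ± 0.062, adjusted p = 0.00048), were among the higher ones, and the separase gene ESPL1 was the lower one (log2 difference -0.35 ± 0.095, adjusted p = 0.0093). With 1 of the 4 libraries left out, 3 (without DAC replicate 2) to 9 replication genes and 5 (without DAC replicate 2) to 8 mitosis genes were called higher, and KIF18A (adjusted p = 0.18 without DAC replicate 2) and ESPL1 (adjusted p = 0.22 without combination replicate 1) were no longer called.

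Histone genes expressed in S phase gave 13 higher and 1 lower of 45 tested, and 25 higher and 2 lower with the GC offset. H1-5, a linker histone, was at 318 and 317 CPM in combination-treated cells and 233 and 241 CPM in DAC-treated cells (log2 difference 0.42 ± 0.069, adjusted p = 3.6e-05). H4C4, a gene of histone H4, was at 105 and 107 CPM in the combination libraries, against 70.9 and 73.8 CPM in the DAC libraries (log2 difference 0.55 ± 0.085, adjusted p = 1.5e-05), and H2BC5, of histone H2B, was at 123 and 115 CPM with the combination and 87.8 and 82.2 CPM with DAC (log2 difference 0.48 ± 0.066, adjusted p = 2e-06). The DAC libraries held the lowest level of H1-5 among these groups, since it was at 464 and 451 CPM with BMN and 549 and 559 CPM in controls. H4C9 was the lower member (log2 difference -0.82 ± 0.21, adjusted p = 0.0055). The higher histone genes numbered 8 (without DAC replicate 2 or combination replicate 1) to 12 with 1 library left out. Histone genes are similar to each other, and the split of fragments between copies is uncertain.

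DNA repair is the process on which PARP inhibitors act. Of 46 genes of homologous recombination and the Fanconi pathway 5 were higher and 1 lower, beside 16.3% of all genes called in either direction, and with the GC offset 3 were higher and 1 lower. POLQ, the polymerase of microhomology-mediated end joining, was at 81.1 and 87.3 CPM in combination-treated cells and 68.8 and 61.8 CPM in DAC-treated cells (log2 difference 0.37 ± 0.082, adjusted p = 0.0017). BRIP1, the helicase partner of BRCA1, was at 88.99 and 99.1 CPM in the combination libraries, against 78.9 and 73.5 CPM in the DAC libraries (log2 difference 0.30 ± 0.10, adjusted p = 0.038), and FANCC of the Fanconi core complex was at 32.6 and 33.01 CPM with the combination and 40.5 and 40.9 CPM with DAC (log2 difference -0.31 ± 0.08, adjusted p = 0.0063). The calls of RAD51C, EXO1 and FANCD2 were lost with the GC offset. Over all genes tested 7.58% were higher and 8.70% lower, and of 26 genes of PARP enzymes and single-strand break repair 2 were higher and 1 lower. CHD1L, a chromatin remodeller that binds poly(ADP-ribose), was the largest of them, at 4.04 and 4.21 CPM in combination-treated cells and 2.19 and 1.89 CPM in DAC-treated cells (log2 difference 1.01 ± 0.26, adjusted p = 0.0055). TDP1 and MPG, the other members called, lost their call with the GC offset. Of 25 genes of end joining and damage signalling 5 were higher and 1 lower. XRCC5 and XRCC6, the Ku heterodimer that caps DNA ends, were at log2 differences of 0.28 ± 0.056 (adjusted p = 0.00054) and 0.24 ± 0.061 (adjusted p = 0.006). PRKDC, the kinase that joins Ku, was at 1132 and 1173 CPM in the combination libraries, against 983 and 957 CPM in the DAC libraries (log2 difference 0.25 ± 0.048, adjusted p = 0.00031). With 1 library left out, the higher recombination and Fanconi genes numbered 0 (without DAC replicate 2) to 3 and the higher end joining genes 2 (without combination replicate 1) to 3. Among these repair genes, POLQ (adjusted p = 0.068 without DAC replicate 2), BRIP1 (adjusted p = 0.29 without combination replicate 2), FANCC (adjusted p = 0.061 without combination replicate 1), CHD1L (adjusted p = 0.08 without DAC replicate 2) and XRCC6 (adjusted p = 0.1 without combination replicate 1) lost their call that way, as did RAD51C (adjusted p = 0.31 without combination replicate 1), EXO1 (adjusted p = 0.077 without DAC replicate 2), FANCD2 (adjusted p = 0.14 without combination replicate 1), TDP1 (adjusted p = 0.2 without DAC replicate 2) and MPG (adjusted p = 0.08 without DAC replicate 2). XRCC5 and PRKDC kept theirs in each of the 4 fits. No PARP or single-strand break repair gene was called without DAC replicate 2.

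The direct targets of the drugs were looked up next. PARP1 was at 294 and 279 CPM with the combination and 289 and 291 CPM with DAC (log2 difference -0.017 ± 0.069, adjusted p = 0.91), and PARP2 at 30.2 and 27.1 CPM in combination-treated cells and 25.2 and 23.3 CPM in DAC-treated cells (log2 difference 0.24 ± 0.11, adjusted p = 0.14). DNMT1, the maintenance methyltransferase, was at 361 and 353 CPM in the combination libraries, against 346 and 358 CPM in the DAC libraries (log2 difference 0.021 ± 0.065, adjusted p = 0.88). The groups overlapped for PARP1 and DNMT1, and none of these 3 genes was called. DNMT3A was at 4.42 and 3.64 CPM with the combination and 3.95 and 3.98 CPM with DAC (log2 difference 0.026 ± 0.18, adjusted p = 0.95) and UHRF1, which guides DNMT1 to replicated DNA, was at 164 and 162 CPM in combination-treated cells and 177 and 184 CPM in DAC-treated cells (log2 difference -0.14 ± 0.078, adjusted p = 0.24). The de novo methyltransferase DNMT3B was called, at 43.2 and 43.8 CPM in the combination libraries, against 55.8 and 51.5 CPM in the DAC libraries (log2 difference -0.30 ± 0.10, adjusted p = 0.029). ABCB1, the pump that exports talazoparib, was at 36.4 and 35.3 CPM with the combination and 34.2 and 33.1 CPM with DAC (log2 difference 0.092 ± 0.088, adjusted p = 0.55). Of the other genes of DNA methylation, MBD2, a reader of methylated cytosine, was at 101 and 100.3 CPM in combination-treated cells and 72.2 and 70.3 CPM in DAC-treated cells (log2 difference 0.50 ± 0.085, adjusted p = 7e-05), and the list counted 2 higher and 2 lower of 18 tested. Of 25 genes of H3K36 methylation 3 were higher and 2 lower, among them the mark's reader MSH6, a mismatch repair protein (log2 difference 0.28 ± 0.064, adjusted p = 0.0024), and the demethylase KDM4B (log2 difference -0.45 ± 0.11, adjusted p = 0.004). Over all genes tested 7.58% were higher and 8.70% lower, so the counts of the DNA methylation and H3K36 methylation lists lie near those shares. The calls of DNMT3B (adjusted p = 0.2 without DAC replicate 1), MSH6 (adjusted p = 0.074 without combination replicate 1) and KDM4B (adjusted p = 0.067 without DAC replicate 2) were lost with 1 library left out, that of DNMT3B in each of the 4 fits. The higher H3K36 methylation genes then numbered 1 (without DAC replicate 2 or combination replicate 1) to 2, and 1 DNA methylation gene was higher in each fit.

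Of 22 genes of nucleoside metabolism 3 were higher and 5 lower, and with 1 library left out 3 (without DAC replicate 2 or combination replicate 2) to 4 were lower. NME1, a nucleoside diphosphate kinase, was at 40.8 and 40.01 CPM in the combination libraries, against 25.9 and 25.6 CPM in the DAC libraries (log2 difference 0.65 ± 0.095, adjusted p = 6.2e-06). SAMHD1, which breaks down deoxynucleotides and the active form of decitabine, was at 332 and 323 CPM with the combination and 412 and 417 CPM with DAC (log2 difference -0.34 ± 0.066, adjusted p = 0.00034). CMPK2, an interferon-induced nucleotide kinase of mitochondria, was at 16.1 and 17.7 CPM in combination-treated cells and 32.8 and 31.8 CPM in DAC-treated cells (log2 difference -0.93 ± 0.12, adjusted p = 6.5e-07). SAMHD1 and CMPK2 are themselves interferon-induced genes. SLC29A1, a nucleoside transporter, was lower (log2 difference -0.33 ± 0.087, adjusted p = 0.0082), and the call of CDA, the deaminase that inactivates decitabine, was lost with the GC offset (adjusted p = 0.18). Of 9 efflux transporters none was higher and 2 were lower, of which ABCC3 was at 68.9 and 69.2 CPM in the combination libraries, against 114 and 116 CPM in the DAC libraries (log2 difference -0.73 ± 0.10, adjusted p = 9.2e-07) and ABCC4 was lower by less (log2 difference -0.29 ± 0.081, adjusted p = 0.01). Leaving out 1 library ended the calls of SLC29A1 (adjusted p = 0.11 without DAC replicate 2), CDA (adjusted p = 0.29 without combination replicate 2) and ABCC4 (adjusted p = 0.16 without combination replicate 1).

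Stress and death genes had calls in both directions. Of 30 p53 targets 5 were higher and 2 lower, beside 7.58% higher and 8.70% lower over all genes tested. The count of lower p53 targets lies near that share. GDF15, a secreted stress factor, was at 30.8 and 31.4 CPM with the combination and 14.4 and 15.3 CPM with DAC (log2 difference 1.07 ± 0.15, adjusted p = 2.1e-06). PLK2, a p53-induced kinase, was at 290.5 and 296 CPM in combination-treated cells and 217 and 216 CPM in DAC-treated cells (log2 difference 0.44 ± 0.053, adjusted p = 2.5e-07), and the death receptor gene EDA2R at 24.99 and 27.5 CPM in the combination libraries, against 19.4 and 18.9 CPM in the DAC libraries (log2 difference 0.46 ± 0.10, adjusted p = 0.0011). CDKN1A, the cyclin kinase inhibitor p21 and the best known p53 target, was at 141 and 145 CPM with the combination and 150.3 and 143 CPM with DAC (log2 difference -0.035 ± 0.084, adjusted p = 0.84), with overlapping groups. The lower calls, BBC3 and PHLDA3, were lost with the GC offset, and that of PHLDA3 also without any 1 library (adjusted p = 0.19 without combination replicate 2). The higher p53 targets numbered 3 (without DAC replicate 2) to 4 with 1 library left out. Of 31 genes of the integrated stress response 2 were higher, near the share over all genes, and 9 lower. With the GC offset 4 were higher and 8 lower. With 1 library left out 3 (without combination replicate 1) to 6 were lower. PPP1R15A, which reverses the translation block, was at 69.5 and 69.4 CPM in combination-treated cells and 41.4 and 45.4 CPM in DAC-treated cells (log2 difference 0.68 ± 0.11, adjusted p = 3.3e-05), and TRIB3, a target of ATF4 and CHOP, was at 121 and 120.5 CPM in the combination libraries, against 179 and 190.2 CPM in the DAC libraries (log2 difference -0.61 ± 0.11, adjusted p = 9.6e-05).

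Of 31 cell death genes 5 were higher and 5 lower, beside 7.58% and 8.70% of all genes tested. With the GC offset 8 were higher and 6 lower. NLRP3, the sensor of the inflammasome that processes interleukin 1 beta, was at 10.5 and 9.79 CPM with the combination and 5.21 and 6.28 CPM with DAC (log2 difference 0.82 ± 0.20, adjusted p = 0.0036). Its call was lost in 1 of the 4 fits without 1 library (adjusted p = 0.067 without DAC replicate 1). GSDMD, the pore protein of pyroptosis, was at 36.9 and 40.1 CPM in combination-treated cells and 71.3 and 77.5 CPM in DAC-treated cells (log2 difference -0.95 ± 0.15, adjusted p = 1.5e-05), and GSDME, its relative, was at 49.3 and 43.5 CPM in the combination libraries, against 36.04 and 33.9 CPM in the DAC libraries (log2 difference 0.41 ± 0.082, adjusted p = 0.00054). These pore genes moved in opposite directions. BCL2L11, the death activator BIM, was at 19.1 and 21.3 CPM with the combination and 31.6 and 31.1 CPM with DAC (log2 difference -0.64 ± 0.091, adjusted p = 4.8e-06). Of 21 senescence and cell cycle inhibitor genes 5 were higher and 1 lower, with a median of -0.035, and 3 (without combination replicate 1) to 4 were higher with 1 library left out. IGFBP5, a secreted binding protein of insulin-like growth factors, was at 74.9 and 73.5 CPM in combination-treated cells and 39.6 and 38.7 CPM in DAC-treated cells (log2 difference 0.92 ± 0.13, adjusted p = 2.3e-06).

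Hypoxia-inducible factor is constantly active in 786-0 cells, which lack VHL. Of 36 of its targets 10 were higher and 4 lower, and with the GC offset 16 were higher and 3 lower. With 1 library left out 1 (without DAC replicate 2 or combination replicate 2) to 2 were lower. ANGPTL4, a secreted inhibitor of lipoprotein lipase, was at 18.9 and 21.5 CPM in the combination libraries, against 5.98 and 5.51 CPM in the DAC libraries (log2 difference 1.81 ± 0.20, adjusted p = 5.9e-08). LDHA, lactate dehydrogenase, was at 2089.7 and 2026 CPM with the combination and 1529.95 and 1483 CPM with DAC (log2 difference 0.45 ± 0.047, adjusted p = 1.2e-08), and EPAS1, which encodes the factor HIF-2 alpha itself, was at 509 and 545 CPM in combination-treated cells and 393 and 404 CPM in DAC-treated cells (log2 difference 0.40 ± 0.063, adjusted p = 1.7e-05). SLC2A1, the glucose transporter GLUT1, was lower, at 1005 and 1040.2 CPM in the combination libraries, against 1294 and 1344 CPM in the DAC libraries (log2 difference -0.37 ± 0.083, adjusted p = 0.0018). Of 15 line markers 6 were higher and 3 lower, among them CP, the copper carrier ceruloplasmin, at 416 and 417 CPM with the combination and 175 and 168 CPM with DAC (log2 difference 1.28 ± 0.094, adjusted p = 4.2e-12), and CDH6, kidney cadherin, at 36.3 and 37.5 CPM in combination-treated cells and 65.1 and 60.5 CPM in DAC-treated cells (log2 difference -0.77 ± 0.081, adjusted p = 1.3e-08).

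Of 28 NRF2 targets 3 were higher and 4 lower, beside 7.58% and 8.70% of all genes tested, and with the GC offset 5 were higher and 8 lower. The higher ones numbered 1 (without DAC replicate 2) to 2 with 1 library left out. FTH1, the ferritin heavy chain that stores iron, was at 1477 and 1386 CPM in the combination libraries, against 938 and 953 CPM in the DAC libraries (log2 difference 0.60 ± 0.077, adjusted p = 6.8e-07), and EPHX1, an epoxide hydrolase, was at 37.8 and 39.4 CPM with the combination and 63.97 and 66.5 CPM with DAC (log2 difference -0.76 ± 0.092, adjusted p = 2.7e-07). Of 19 renal tubule genes 1 was higher and 6 lower, and the summed level of the 29 genes in that list was 763 and 754 CPM with the combination and 698 and 699.6 CPM with DAC. MME, the membrane protease neprilysin, was at 89.04 and 86.7 CPM in combination-treated cells and 56.7 and 50.3 CPM in DAC-treated cells (log2 difference 0.72 ± 0.11, adjusted p = 2.1e-05). PAX2, a kidney transcription factor, was at 16.2 and 14.002 CPM in the combination libraries, against 26.5 and 26.5 CPM in the DAC libraries (log2 difference -0.81 ± 0.14, adjusted p = 5.1e-05). The tubule genes LRP2, UMOD, SLC12A1 and SLC22A6 were at 0 in all 4 libraries.

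The same contrast was fitted at the other days and in WT cells, from other libraries. At day 5, KO cells given the combination against DAC had 2369 genes higher (10.5%) and 2661 lower (11.8%). At day 26 they had 2840 higher (12.6%) and 2549 lower (11.3%), and WT cells at day 16 had 1135 higher (5.04%) and 1624 lower (7.21%). Of the 1959 genes lower in KO cells at day 16, 764 (39.0%) were also lower at day 5, where they made up 28.7% of the lower genes, and 125 were higher there. At day 26, 632 (32.3%) were also lower, 24.8% of the lower genes of that day, and 209 were higher. In WT cells 667 (34.0%) were lower, 41.1% of the WT list, and 72 were higher. Of the 1707 higher genes, 496 (29.1%) were higher at day 5, 703 (41.2%) at day 26 and 405 (23.7%) in WT cells, which were 20.9%, 24.8% and 35.7% of the lists there. Opposite calls numbered 203 at day 5, 162 at day 26 and 58 in WT cells. The counts of calls in either direction also rest on single libraries. Day 5 fell to 3217 without combination replicate 1, 3235 without combination replicate 2 and 3002 without DAC replicate 1, of 5030. Day 26 fell to 3468 without combination replicate 2 and 3535 without DAC replicate 1, of 5389, and WT cells to 1809 without combination replicate 2 and 1813 without DAC replicate 1, of 2759.

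**Figure D4:**
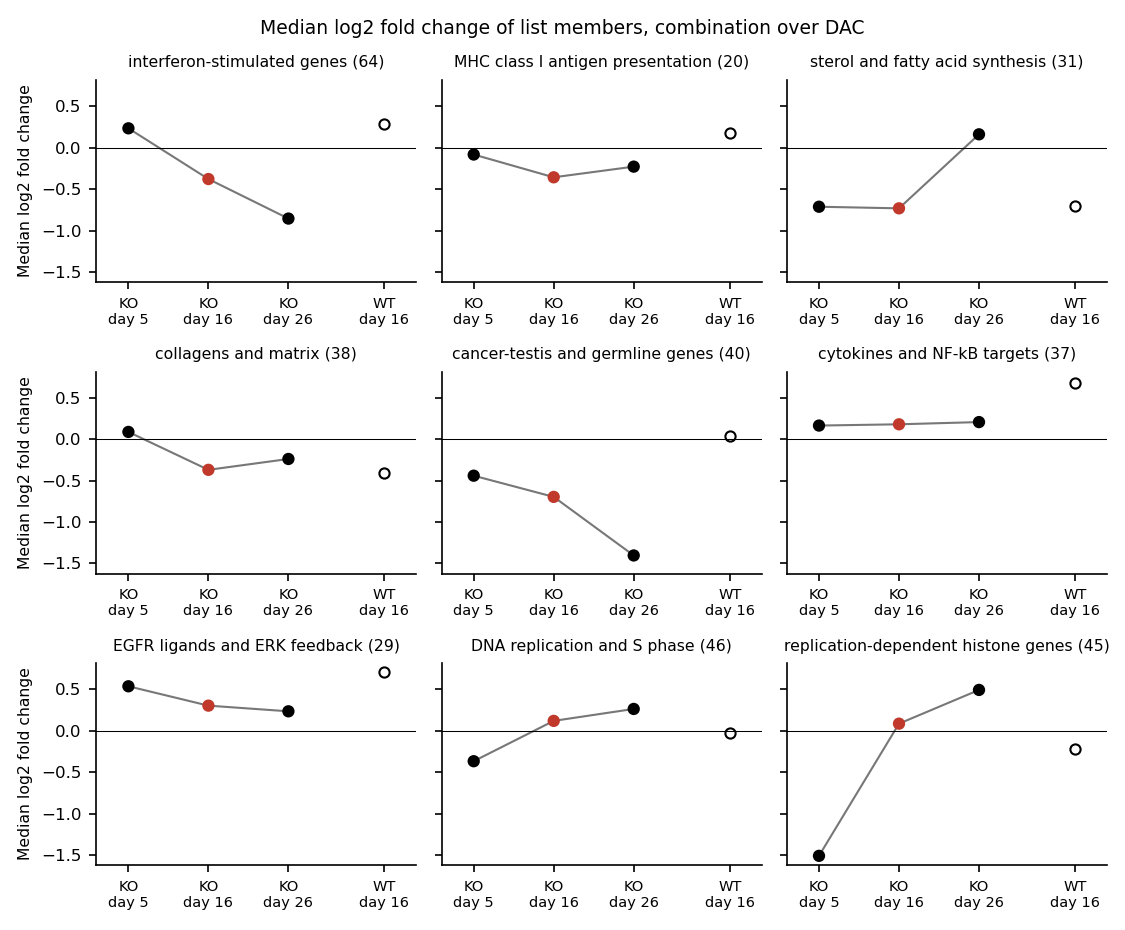
Median log2 difference, combination over DAC, of 9 gene lists in KO cells at days 5, 16 and 26 (filled points joined by a line) and in WT cells at day 16 (open circles). The interferon list is at 0.23, -0.38 and -0.86 in KO cells by day and at 0.29 in WT cells, and the sterol list is at -0.71, -0.73 and 0.16 in KO cells and at -0.70 in WT cells.

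The difference between contrasts was tested gene by gene with an interaction term. The contrast at day 16 differed from that at day 5 in 2713 genes (12%), from that at day 26 in 3228 genes (14.3%), and from that in WT cells at day 16 in 1497 genes (6.65%). The count against day 26 was 2117 without day 26 combination replicate 2 and 2064 without day 26 DAC replicate 1. The count against WT cells was 862 without KO combination replicate 1, 891 without KO DAC replicate 2, 911 without WT combination replicate 1 and 982 without WT DAC replicate 2. The interferon list counted 28 higher and 3 lower at day 5, none higher and 40 lower at day 16, none higher and 57 lower at day 26, and 29 higher and 1 lower in WT cells at day 16, where the GC offset gave 45 higher and 1 lower. The test of the difference placed the day 16 contrast below that of day 5 in 45 of these genes and above it in 2, beside 5.42% below and 6.63% above over all genes. It lay above that of day 26 in 37 and below it in none (6.37% above and 7.96% below over all genes), and below that of WT cells in 50 and above it in none (3.19% below and 3.45% above). ISG15 was at 85.6 and 92.2 CPM with the combination and 59.4 and 49.4 CPM with DAC at day 5. In WT cells at day 16 it was at 339.6 and 321 CPM with the combination and 267 and 252 CPM with DAC. Its fall at day 16 in KO cells differed from day 5 by -1.70 ± 0.18 (adjusted p = 2.5e-08) and from WT cells by -1.34 ± 0.17 (adjusted p = 2.1e-06). MX1 at day 26 was at 57.003 and 59.99 CPM with the combination and 289 and 302 CPM with DAC. The day 16 contrast of MX1, a smaller fall, differed from that of day 26 by 1.37 ± 0.12 (adjusted p = 5.3e-10), and from that of WT cells by -1.29 ± 0.12 (adjusted p = 1.4e-09).

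Of the 20 MHC class I genes, 5 were lower at day 5, 12 at day 16 and 8 at day 26 in KO cells, and none was higher. With the GC offset, 4 were higher and 7 lower at day 5 and 1 higher and 11 lower at day 26. In WT cells at day 16, 3 were higher and 1 lower, or 12 higher and 1 lower with the GC offset, and the KO contrast lay below the WT one in 13 of the 20 genes. TAP1 was at 293 and 279 CPM with the combination and 223 and 212 CPM with DAC in WT cells, and the KO contrast differed from the WT one by -1.26 ± 0.12 (adjusted p = 7.4e-09). Germline genes gave 1 higher and 14 lower at day 5, 18 lower at day 16 and 31 lower at day 26 in KO cells, and 2 higher and 2 lower in WT cells, where the GC offset gave 4 higher and 3 lower. The day 16 contrast lay above that of day 26 in 14 of the 40 genes and below that of WT cells in 9, or 16 with the GC offset.

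The sterol list had lower calls at day 5 in KO cells (24 lower, none higher), at day 16 in KO cells (25 lower) and at day 16 in WT cells (23 lower), but at day 26 it counted 14 higher and none lower. The day 16 contrast lay below that of day 26 in 26 of the 31 genes. SCD at day 26 was at 789 and 816 CPM with the combination and 585 and 612 CPM with DAC. Its contrast at day 16 differed from that at day 26 by -2.45 ± 0.065 (adjusted p = 6.8e-24). In WT cells SCD was at 133 and 131 CPM with the combination and 1041 and 1029 CPM with DAC, a larger fall than in KO cells, the difference being 0.95 ± 0.065 (adjusted p = 3.7e-12).

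**Figure D5:**
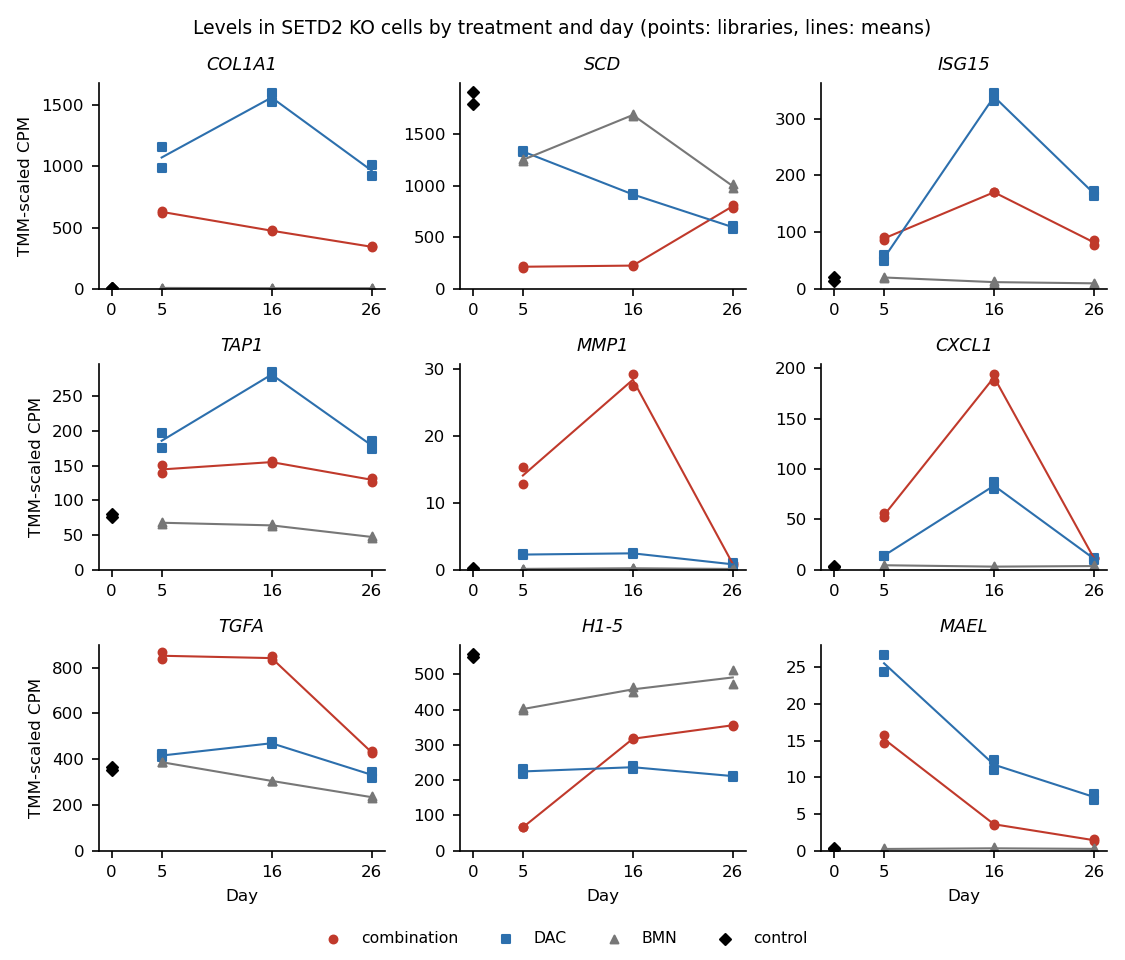
CPM of COL1A1, SCD, ISG15, TAP1, MMP1, CXCL1, TGFA, H1-5 and MAEL by day in KO cells given the combination, DAC or BMN, with KO controls at day 0. Points are libraries and lines join group means, on a linear axis. At day 16 SCD is at 223 and 228 CPM with the combination and 923 and 910 CPM with DAC, and at day 26 it is higher with the combination than with DAC.

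The matrix list gave 12 higher and 12 lower at day 5, against 3 higher and 20 lower at day 16, and 19 genes differed downwards between these contrasts and 3 upwards. COL3A1 at day 5 was at 0.498 and 0.669 CPM with the combination and 0.385 and 0.31999 CPM with DAC, and the contrasts differed by -3.62 ± 0.55 (adjusted p = 2e-05). ADAMTS5, a protease of cartilage proteoglycan, was at 42.5 and 41.8 CPM with the combination and 11.9 and 12.7 CPM with DAC at day 5, against a fall at day 16 (log2 difference -1.06 ± 0.15, adjusted p = 3.2e-06). COL1A1 fell in WT cells too, at 1322 and 1201 CPM with the combination and 1822 and 1748 CPM with DAC, and the KO contrast differed from it by -1.22 ± 0.13 (adjusted p = 5.8e-08). MMP1 at day 26 was at 0.787 and 0.968 CPM with the combination and 0.617 and 1.01 CPM with DAC, so its rise at day 16 was not seen in the day 26 libraries (difference 3.42 ± 0.43, adjusted p = 7.6e-07).

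In WT cells at day 16, 24 of the 37 cytokine and NF-kB genes were higher with the combination and 1 lower, and the KO contrast lay below the WT one in 22 of them and above it in 1. CXCL1 in WT cells was at 169 and 172 CPM with the combination and 42.3 and 42.8 CPM with DAC, and the KO contrast differed from it by -0.81 ± 0.14 (adjusted p = 0.00017). IL6 in WT cells was at 327 and 327 CPM with the combination and 43.7 and 41.1 CPM with DAC, with a difference between contrasts of -1.96 ± 0.13 (adjusted p = 3.7e-12). At day 26 in KO cells the CXCL1 contrast was 0.062 ± 0.13 (adjusted p = 0.78), and the day 16 contrast exceeded it by 1.13 ± 0.16 (adjusted p = 6.3e-06). ALDH1A1, an enzyme that makes retinoic acid, fell in both lines. It was at 3.16 and 3.07 CPM with the combination and 10.5 and 9.74 CPM with DAC (log2 difference -1.69 ± 0.10, adjusted p = 8.5e-14) in KO cells, and in WT cells at 3.34 and 3.86 CPM with the combination and 107 and 107 CPM with DAC, the difference being 3.19 ± 0.15 (adjusted p = 1.6e-16).

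The histone list counted 44 lower of 45 tested and none higher at day 5, 13 higher and 1 lower at day 16, and 35 higher and 2 lower at day 26. The day 16 contrast lay above that of day 5 in 44 histone genes, and below that of day 26 in 18 and above it in 1, or in 10 and 2 with the GC offset. H1-5 at day 5 was at 66.3 and 65.8 CPM with the combination and 231 and 218 CPM with DAC, and the day 16 contrast lay above it by 2.19 ± 0.10 (adjusted p = 1.6e-16). The replication list gave 33 lower and none higher at day 5, and 26 higher and none lower at day 26, and its day 16 contrast lay above that of day 5 in 31 of 46 genes. POLA1 differed between the day 16 and the day 5 contrast by 1.10 ± 0.12 (adjusted p = 2.5e-08). Of the 30 p53 targets 23 were higher and none lower at day 5, against 5 higher and 2 lower at day 16, and the contrast was smaller at day 16 in 20 of them. CDKN1A at day 5 was at 428 and 462 CPM with the combination and 138 and 126 CPM with DAC (log2 difference 1.75 ± 0.085, adjusted p = 6e-17). GDF15 at day 5 was at 176 and 173 CPM with the combination and 14.4 and 12.5 CPM with DAC, and the day 16 contrast differed from it by -2.63 ± 0.20 (adjusted p = 2e-11).

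KO cells given BMN alone and taken at day 16 were set against KO controls at day 0, where drug and time in culture cannot be told apart. In that comparison 2326 genes (10.3%) were higher and 3423 (15.2%) lower, but its log2 differences followed GC content with a correlation of -0.80, and with the GC offset 2439 genes were called in all. Without BMN replicate 2 the calls numbered 2806, and without control replicate 2, 3131. The interferon list gave 11 higher and 14 lower, and 8 higher and 8 lower with the GC offset. The sterol list gave 1 higher and 15 lower, and 1 higher and 7 lower with the GC offset. SCD differed there by -0.14 ± 0.045 (adjusted p = 0.025), against -2.02 when BMN was added to DAC. MX1 differed by -0.079 ± 0.22 (adjusted p = 0.86), COL1A1 by -0.32 ± 0.17 (adjusted p = 0.18) and CXCL1 by 0.078 ± 0.20 (adjusted p = 0.84), none of them called. The difference between these comparisons and that of the combination against DAC was not tested.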

How the data were processed

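The deposited values are raw counts of fragments for 60664 genes, made by the authors with featureCounts 1.5.0-p1 at strand setting 1, a minimum mapping quality of 20 and the Ensembl 104 annotation of GRCh38, per the file headers. The submitters' processing notes also name FastQC, Trimmomatic and Partek, and the libraries were made from total RNA with the KAPA RNA HyperPrep reagents that the labels name. Total RNA libraries keep transcripts without poly(A) tails, such as most histone transcripts. All 37 mitochondrial genes are listed at 0. The 40 count columns match 40 samples, and 42028 genes have a symbol in the reference names.

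Counts of all 40 libraries (20 groups of 2) were scaled by TMM and fitted with edgeR 4.0.16 in R 4.3.3, quasi-likelihood test, after filterByExpr (minimum count 10, minimum total 15). p-values were adjusted by Benjamini-Hochberg over 22527 genes. The standard error is the log2 difference divided by the square root of F. A floor of 3 counts per library in place of 0 was tried for list medians only, and the medians given here are those without it. Levels of 0 are given as 0. All groups share 1 estimate of spread, which 2 libraries per group allow. In simulated counts for the contrast of combination over DAC, run on 22441 genes, a change of 1.5-fold was called in 37 of 67 genes (55.2%), one of 2-fold in 54 of 67 (80.6%) and one of 4-fold in 61 of 66 (92.4%), and 12 unchanged genes were called. The simulated counts held no trend with GC content, unlike the libraries, so they do not give the error rate of the calls reported here. In a chi-square test of counts over genes, each pair of replicates differed by more than sampling noise. The value per degree of freedom was 2.60 for the combination and 3.52 for DAC. Every library was counted, but separate preparations from the same culture could differ in this way too. The test therefore does not show that the replicates were separate cultures.

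The members and the gene lists were chosen with earlier results of these data known, so list counts are a description. Genes are named by a rule: 8 fixed genes of the drugs and the knockout, the 12 largest rises and falls (5 CPM or more on average in the group with more, 3 counts in each library, no overlap), up to 5 called members of each list in each direction, and 5 genes per interaction. The genes IFI6, SREBF2, INSIG1, HLA-B, B2M, IL6, CXCL8, FOSL1, ETV5 and CDKN1A were added after their values were seen, and some genes that the rule named are not reported here. Alternatives were DESeq2 1.42.0 size factors and Wald test, other filters, smaller sets of libraries, a replicate block, a term for the alignment names, a fold threshold of 1.2 (glmTreat) and leaving out each library. A GC offset from GENCODE 29 transcripts and a crossed pairing were added after seeing the data. Promoters came from RefSeq (GRCh38.p14). Genes that overlap or that have near-identical copies may share fragments.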

Additional observations from a re-analysis of the deposited data

Results flagged for a closer look

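Each value here comes from the interaction test, edgeR's quasi-likelihood test with Benjamini-Hochberg adjustment, of whether the log2 difference of combination over DAC in KO cells at day 16 differs from that of another day or line. Against day 5 the difference passed in 2713 genes, against day 26 in 3228 and against WT cells at day 16 in 1497.

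Among genes with large differences against day 5, COL3A1 differed by -3.62 ± 0.55 (adjusted p = 2e-05) and ADAMTS5 by -2.84 ± 0.20 (adjusted p = 1.1e-12). PADI3, a peptidylarginine deiminase, differed by -3.46 ± 0.72 (adjusted p = 0.0011), and stood at 0.273 and 0.171 CPM in combination-treated cells and 0.987 and 1.02 CPM in DAC-treated cells at day 16 and at 7.24 and 7.53 CPM with the combination and 3.02 and 2.88 CPM with DAC at day 5. DCN differed by 3.52 ± 1.15 (adjusted p = 0.046), with day 5 levels of 0.111 and 0.112 CPM with the combination and 0.165 and 0.107 CPM with DAC, about 3 counts per library or fewer. Of the genes that stand for the main lists, ISG15 differed by -1.70 ± 0.18, MX1 by -1.23 ± 0.13, TAP1 by -0.50 ± 0.12, SCD by 0.61 ± 0.065, COL1A1 by -0.95 ± 0.13, CXCL1 by -0.75 ± 0.15 and H1-5 by 2.19 ± 0.10, with adjusted p of 2.5e-08, 2.1e-08, 0.006, 1.9e-08, 3.7e-06, 0.00057 and 1.6e-16 in that order.

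Against day 26, LINC01226 differed by 3.86 ± 0.71 (adjusted p = 0.00027), with day 26 levels of 0.246 and 0.102 CPM with the combination and 0.566 and 1.01 CPM with DAC. IL1B differed by 3.59 ± 0.67 (adjusted p = 0.00043), with day 26 levels of 0.295 and 0.153 CPM with the combination and 1.03 and 0.212 CPM with DAC. DCN differed by 3.56 ± 1.07 (adjusted p = 0.026), again from day 26 levels near 3 counts per library, and MMP1 differed by 3.42 ± 0.43 (adjusted p = 7.6e-07). SND1-IT1, a noncoding transcript inside SND1, differed by 2.80 ± 0.30 (adjusted p = 3.9e-08), at 4.31 and 4.89 CPM in the combination libraries, against 1.87 and 2.55 CPM in the DAC libraries at day 16 and 1.87 and 2.19 CPM with the combination and 6.58 and 7.07 CPM with DAC at day 26. MX1 differed by 1.37 ± 0.12, TAP1 by -0.39 ± 0.12, SCD by -2.45 ± 0.065, CXCL1 by 1.13 ± 0.16 and H1-5 by -0.33 ± 0.10, with adjusted p of 5.3e-10, 0.029, 6.8e-24, 6.3e-06 and 0.021 in that order.

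Against WT cells, CSF3 differed by -3.54 ± 0.42 (adjusted p = 5.2e-06), with 35.1 and 34.5 CPM with the combination and 0.879 and 0.569 CPM with DAC in WT cells. CCL3, a chemokine of macrophages, differed by -2.81 ± 0.37 (adjusted p = 1.7e-05), at 5.29 and 4.44 CPM with the combination and 0.933 and 1.22 CPM with DAC in KO cells and at 48.7 and 43.2 CPM with the combination and 1.53 and 1.37 CPM with DAC in WT cells. TNFRSF1B, a receptor of tumour necrosis factor, differed by -3.35 ± 0.53 (adjusted p = 0.00014), at 0.982 and 1.42 CPM in combination-treated cells and 1.76 and 1.02 CPM in DAC-treated cells in KO cells, where it was not called, and at 10.9 and 11.2 CPM with the combination and 1.71 and 0.758 CPM with DAC in WT cells. CNN1, smooth muscle calponin, differed by 3.53 ± 0.64 (adjusted p = 0.00036), at 0.382 and 0.569 CPM in the combination libraries, against 1.59 and 1.48 CPM in the DAC libraries in KO cells and at 0.418 and 0.401 CPM with the combination and 15.9 and 14.8 CPM with DAC in WT cells. ALDH1A1 differed by 3.19 ± 0.15 (adjusted p = 1.6e-16). ISG15 differed by -1.34 ± 0.17, MX1 by -1.29 ± 0.12, TAP1 by -1.26 ± 0.12, SCD by 0.95 ± 0.065, COL1A1 by -1.22 ± 0.13, CXCL1 by -0.81 ± 0.14 and H1-5 by 0.57 ± 0.10, with adjusted p of 2.1e-06, 1.4e-09, 7.4e-09, 3.7e-12, 5.8e-08, 0.00017 and 0.00018 in that order.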

How the results depend on the processing

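Of 242 genes named by rule or added, 233 were called, and all 233 kept their direction under every alternative. In every called gene both combination libraries lay on the same side of both DAC libraries. Leaving out a library or changing the filter, test or block could therefore hardly turn the sign. The fold threshold uses the same fitted differences. The kept direction is thus no separate support for the calls. The call was kept in 131 of the 233 genes under every alternative that used all libraries. Calls were lost in 24 with the GC offset, 24 without a filter on low counts, 101 with a fold threshold of 1.2 (glmTreat), 6 with DESeq2 size factors, 3 with the DESeq2 Wald test and 43 to 63 when 1 library was left out. The interferon, MHC class I, sensing, sterol and germline lists had no gene called higher with any 1 library left out. In the fit on the libraries of the contrast alone, however, 1 MHC class I gene and 1 germline gene were called higher. On the KO libraries alone 1 germline gene was called higher. Genes not called changed sign. DNMT1 was at -0.00042 with DESeq2 size factors, -0.00043 with the Wald test and -0.0055 without a filter, DNMT3A at -0.0011 without a filter, ABCB1 at -0.014 and CDKN1A at 0.13 with the GC offset. With 1 library left out, DNMT1 ranged between -0.0034 and 0.047, DNMT3A between -0.12 and 0.16, PARP1 between -0.056 and 0.021, TNFRSF1B between -0.55 and 0.23 and CDKN1A between -0.072 and 0.0029.

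Combination against DAC in KO cells at day 16 gave 365 genes higher and 747 lower with glmTreat. It gave 1485 and 2093 with DESeq2 size factors, 1187 and 2191 without a filter, 2290 and 2813 on the 4 libraries alone, and 2107 and 2084 with the GC offset, so the share of higher genes among the calls moved by over 10 percentage points without a filter and with glmTreat. With glmTreat the calls in either direction were 2062 at day 5, 2074 at day 26, 1353 in WT cells, 1473 for BMN against control, and 1112, 1424 and 571 for the differences from day 5, day 26 and WT cells. With the GC offset they were 4186 in WT cells, 2439 for BMN, 4140 for the difference from day 5 and 2293 for that from WT cells. On the libraries of the contrast alone they were 5075 for the difference from day 26 and 2616 for that from WT cells. Leaving out 1 library gave 804 to 1061 higher and 1056 to 1351 lower genes, 3002 to 4022 calls at day 5, 3468 to 3896 at day 26, 1809 to 1933 in WT cells and 2806 to 4434 for BMN, and 1819 to 2208, 2064 to 2641 and 862 to 1110 for the differences from day 5, day 26 and WT cells. The cause of these shifts was not tested.

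Replicate numbers do not pair the samples: the labels give no shared origin, and the deviations of replicate 1 and 2 correlated at -0.15 between the combination and DAC. A replicate block gave 1740 genes higher and 1981 lower on all libraries and 2077 and 2612 on the 4 libraries alone, and on the libraries of each contrast alone the block gave 5054 calls in WT cells, 5131 for the difference from day 26 and 2370 for that from WT cells. The crossed pairing, chosen after seeing the data, gave 2838 higher and 3260 lower. With 2 libraries per group a gene missing the threshold is not shown to be unchanged, and at low counts only large differences can be called.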
